A study of Mus musculus with 6 samples.

Results

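Transcripts of respiratory complexes III and IV, of cytochrome c and of ATP synthase were followed in skeletal muscle of PRR14-KO mice, which lack the nuclear protein PRR14. The genes were taken by symbol from a table of 22036 gene rows: those starting with Uqcr, Cox4 to Cox8 or Atp5, together with Cyc1, Cycs, mt-Co1, mt-Co2, mt-Co3, mt-Cytb, mt-Atp6 and mt-Atp8. This gave 52 rows with 51 different symbols, 46 encoded in the nucleus and 6 in mitochondrial DNA. They fell into 10 rows for complex III, 1 for cytochrome c, 21 for complex IV and 20 for ATP synthase. Every animal carried the knockout. Muscle had received an AAV, a viral vector derived from adeno-associated virus, 1 month before: its cargo was MEF2C-GFP, MEF2C with green fluorescent protein, in 3 libraries and GFP alone in the other 3. MEF2C is a transcription factor of muscle, and the comparison asks what its supply changes in knockout muscle. The labels name no muscle, no promoter of the virus, no wild-type group and no uninjected group in the set analysed here, and nothing in them ties each replicate to its own animal, so that p-values speak only of the spread among these libraries, which may be technical. RNA was read as amplified full-length cDNA on an Oxford Nanopore instrument, where each cDNA molecule gives 1 long read whatever its length.

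Complex III passes electrons from ubiquinol to cytochrome c, complex IV passes them from cytochrome c to oxygen, and the proton gradient built on the way drives ATP synthase. Each complex joins subunits made in the cytosol from nuclear genes with core subunits made inside the mitochondrion. The catalytic head of ATP synthase is wholly nuclear, as are cytochrome c1 and the Rieske protein of complex III. In skeletal and cardiac muscle, several small subunits of complex IV exist as a muscle isoform and a ubiquitous isoform from separate genes.

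Mef2c itself, the cargo of the virus, was examined first. Its level in CPM, counts relative to the library total as scaled by the TMM method, was 234, 196 and 371 in the MEF2C libraries and 223, 261 and 236 in the GFP libraries, where triplets of values here and below follow replicates 1, 2 and 3. The groups overlapped (log2 fold change 0.15 ± 0.22 SE, edgeR adjusted p = 0.993), so that this gene does not tell the groups apart, and directions below are those of the libraries as labelled. Listed counts ranged from 3370833 to 3900617 per library, with 13001 to 13637 genes detected. The 6 genes that define skeletal muscle summed to between 122884 and 133980 CPM in the MEF2C libraries and between 155721 and 185202 in the GFP libraries, none of them at 0. Myh4, Mylpf and Tnnt3 among them are counted again with the fast-fibre genes below. Of the 6 genes 1 had a positive log2 fold change, Des at 0.25 ± 0.18. Among other marker sums, slow-fibre genes stood at 1694, 1665 and 422 CPM in the MEF2C libraries against 198 to 265 in the GFP libraries, fast-fibre genes at 137032 to 143637 against 183690 to 210625, and haemoglobin and other blood genes at 4393 to 8631 against 3080 to 4166. Of the slow-fibre genes 9 of 9 and of the blood genes 5 of 5 had positive log2 fold changes, with 0 called, and of the fast-fibre genes 10 of 10 had negative ones, with 3 called by edgeR. Over all tested genes 52.2% had positive ones and 0.0758% were called. Without overlap between groups, 8 slow-fibre and 4 blood genes were higher in the MEF2C libraries (5.75% of all tested genes). In the same way 8 fast-fibre genes were lower (5.33% of all tested genes). Smooth muscle and pericyte genes summed to 994 to 1083 CPM against 771 to 991, and the sums of adipocyte, brown adipocyte, endothelial, fibroblast and macrophage genes overlapped between groups. MEF2C replicate 2 was nonetheless high in adipocyte genes, at 1910 CPM beside 810 to 1268 elsewhere. Its brown adipocyte sum was 71.0 CPM, beside 22.7 to 33.5 elsewhere. Neutrophil genes summed to 1264 CPM in MEF2C replicate 1, to 79.5 in GFP replicate 3 and to 7.72 or less elsewhere. The part of these differences in the results below was not tested. In bulk tissue, fewer cells of a type and less RNA per cell cannot be told apart.

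No gene of the 3 complexes passed the test between groups. Of the 52 rows, 48 had enough counts to be tested, and edgeR's quasi-likelihood test with Benjamini-Hochberg adjustment over 9229 genes called 0 of them at an adjusted p under 0.05, where 7 of all tested genes were called, 0.0758% (0.0325% with higher and 0.0433% with lower values in the MEF2C libraries). DESeq2 and limma-voom also called 0 of the 48. At an unadjusted p under 0.05 edgeR had 2 of the 48, mt-Co1 with higher and Uqcrc1 with lower values in the MEF2C libraries, beside 5.71% of all tested genes (3.36% higher and 2.35% lower). The groups did not overlap for 2 of the 48, mt-Co1 higher and Cox6c lower, beside 11.1% of all tested genes (5.75% higher and 5.33% lower). Log2 fold changes were positive for 24 and negative for 24, with a median of 0.00 that sat beside a median of 0.01 over all tested genes.

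The intervals around these values were narrow for most subunits. For 40 of the 48 tested genes the 95% interval of the fold change lay wholly within 1.5-fold either way, which held for 33.2% of all tested genes. The median standard error was 0.12 on the log2 scale, against 0.25 over all tested genes. These are abundant messages: their median rank by mean CPM was 84 of 9229, and 45 of them stood at a mean of at least 100 CPM. Their median coefficient of variation within groups was 10.1%, close to the 10.5% of the 1002 tested genes at that level. In 39 of the 48 the highest library was at most 1.5 times the lowest. The genes with intervals that reached past 1.5-fold were mt-Co1, mt-Cytb, mt-Atp8, Uqcrfs1, Uqcrc1, Cox5a, Cox4i2 and Atp5s.

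**Figure D1:**
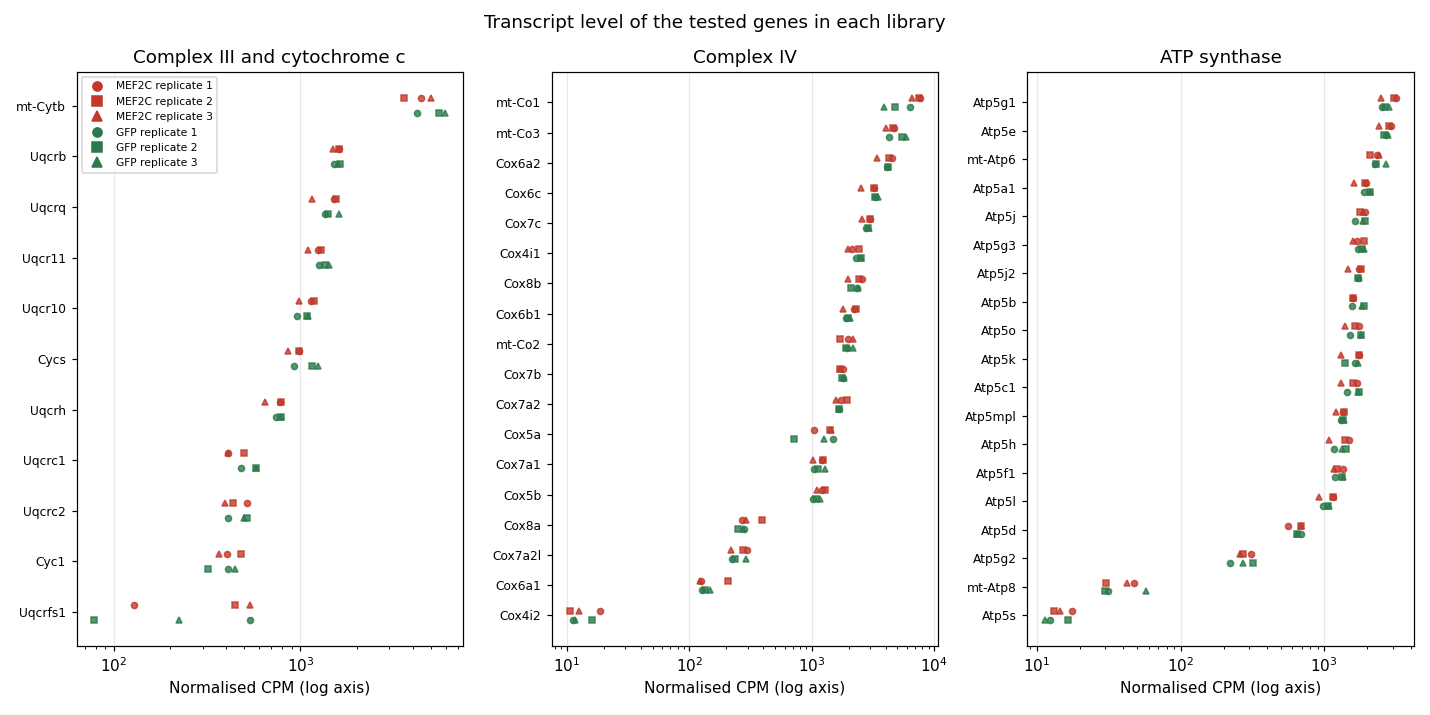
Normalised CPM of the 48 tested genes in each library on a log axis, with MEF2C libraries in red above GFP libraries in green and 1 symbol shape per replicate number. Most genes show 6 points close together, whereas Uqcrfs1 spreads from 78.5 to 539 CPM and mt-Co1 shows its 3 red points, 6519 to 7713, to the right of its 3 green points, 3896 to 6354.

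**Figure D2:**
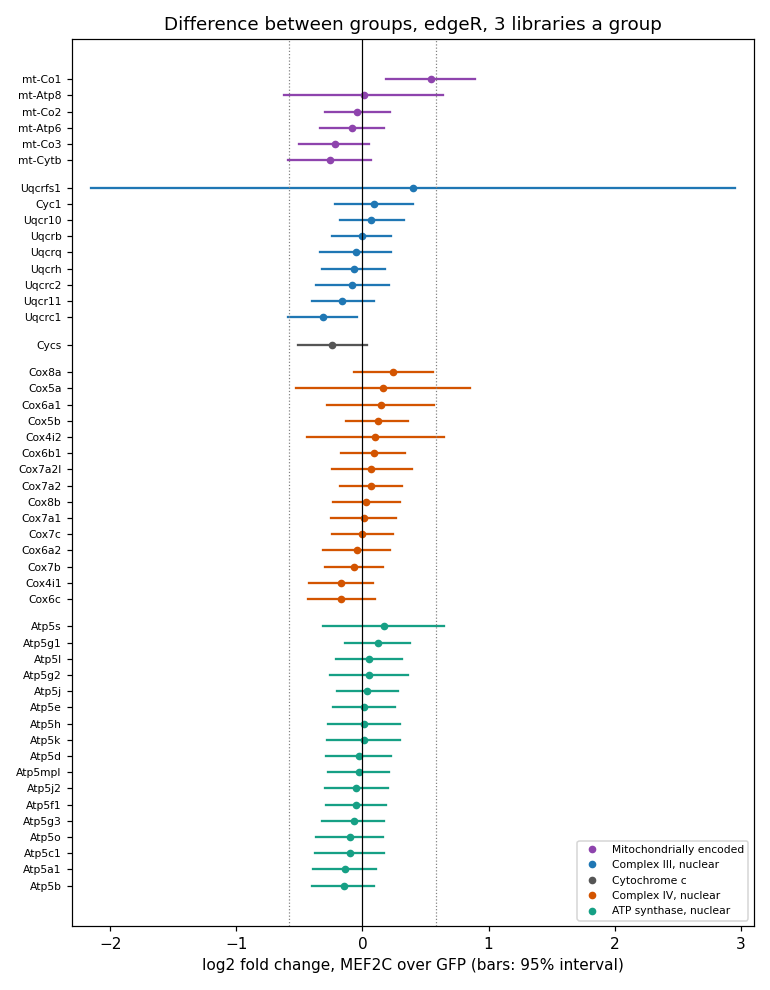
Log2 fold change of each tested gene, MEF2C over GFP, with its 95% interval from edgeR on 3 libraries a group. Dotted lines mark 1.5-fold either way, and colours give the complex and the genome of origin. The point farthest from 0 is mt-Co1 at 0.54, and the widest interval is that of Uqcrfs1, from -2.15 to 2.95.

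The mitochondrial genome encodes 6 of these subunits, all on its plus strand (GRCm38 chromosome M). mt-Co1 (5328 to 6872, ENSMUSG00000064351) encodes the catalytic subunit of complex IV that holds the oxygen-binding site. It stood at 7713, 7543 and 6519 CPM in the MEF2C libraries and at 6354, 4756 and 3896 in the GFP libraries. Every MEF2C library lay above every GFP library, but the lowest of the former and the highest of the latter were close. The group means were 7258 ± 646 and 5002 ± 1248 CPM (SD, n = 3 libraries each). The log2 fold change of 0.54 ± 0.16 (SE, 95% interval 0.19 to 0.89) did not pass the test (edgeR Benjamini-Hochberg adjusted p = 0.662). Its value ranged from 0.38 without GFP replicate 3 to 0.73 without GFP replicate 1.

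The other mitochondrial messages of these complexes did not share that order of libraries. mt-Co3 (8607 to 9390), the third core subunit of complex IV, stood at 4659, 4616 and 4021 CPM in the MEF2C libraries and at 4284, 5428 and 5824 in the GFP libraries (log2 fold change -0.22 ± 0.13, edgeR adjusted p = 0.928). mt-Cytb (14145 to 15288), the cytochrome b of complex III that oxidises ubiquinol, stood at 4451, 3605 and 5013 CPM against 4200, 5534 and 5962 (-0.26 ± 0.15, edgeR adjusted p = 0.928). For both genes GFP replicates 2 and 3 were the highest libraries and GFP replicate 1 lay among the MEF2C libraries, so that the groups overlapped. mt-Co2 (7013 to 7696), the subunit that receives electrons from cytochrome c, stood at 1974, 1697 and 2174 CPM against 1930, 1907 and 2181 (-0.04 ± 0.12, edgeR adjusted p = 0.993). mt-Atp6 (7927 to 8607), the a subunit of the proton channel, stood at 2328, 2089 and 2422 CPM against 2269, 2280 and 2695 (-0.08 ± 0.12, edgeR adjusted p = 0.993). These 2 messages had nearly the same levels in both groups.

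mt-Atp8 (7766 to 7969), a small membrane subunit of ATP synthase, had far fewer reads than mt-Atp6, with which it shares 43 bases and, by textbook knowledge, a transcript. It stood at 47.2, 30.4 and 42.6 CPM in the MEF2C libraries and at 31.4, 29.7 and 57.8 in the GFP libraries (log2 fold change 0.01 ± 0.28, edgeR adjusted p = 0.998). Its counts were 1.3% to 2.14% of those of mt-Atp6 in each library. How the authors' counting assigned a read that covers both genes is not given in the sources used here, so the split between them is uncertain.

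The mix of mitochondrial messages was set out as shares, since a share within a library does not depend on the scaling between libraries. mt-Co1 took 17.1%, 20.1% and 14.5% of the reads of the 13 protein-coding mitochondrial genes in the MEF2C libraries and 15.7%, 11.9% and 8.68% in the GFP libraries. On this scale the groups overlapped, since GFP replicate 1 lay above MEF2C replicate 3. The share of mt-Atp6 was 5.17%, 5.56% and 5.38% against 5.61%, 5.7% and 6.0%, with every MEF2C library below every GFP library. Outside the 3 complexes, the complex I message mt-Nd1 took 28.3% to 32.5% against 26.5% to 28.1%, and mt-Nd4 took at most 14.2% against 15.9% to 16.6%, each without overlap. No test was made of these shares.

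**Figure D3:**
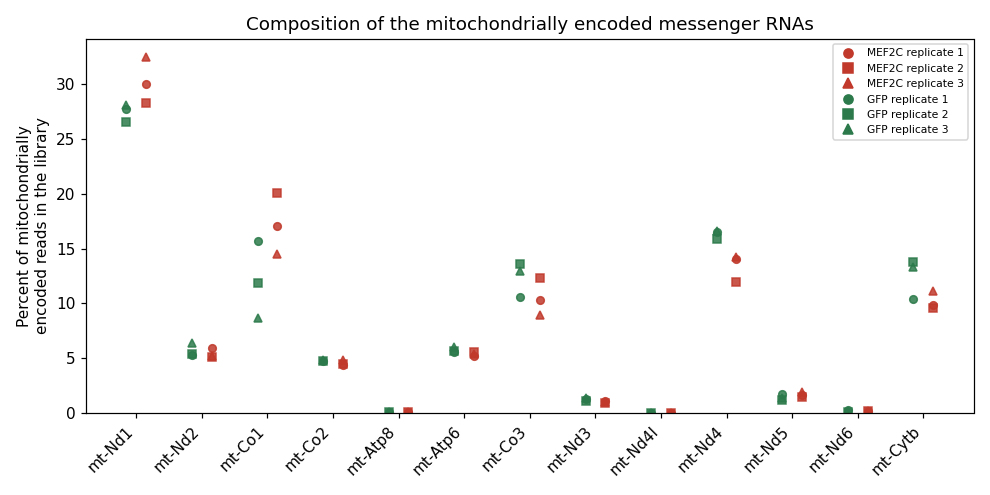
Share of each of the 13 protein-coding mitochondrial genes in the reads of all 13, in percent, in each library, ordered along the genome. GFP libraries are green and to the left of each pair, MEF2C libraries red and to the right. mt-Co1 has the widest spread, 8.68% to 20.1%, and mt-Nd4 is the gene with the clearest gap between groups, 14.2% against 15.9%.

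Complex III has 9 nuclear genes here, all tested, with log2 fold changes from -0.31 to 0.40, a median of -0.05, 3 positive and 6 negative. Uqcrc1 (ENSMUSG00000025651, chromosome 9, 108936633 to 108949623, plus strand) encodes core subunit 1, a large matrix-facing protein. It stood at 411, 497 and 410 CPM in the MEF2C libraries and at 480, 577 and 579 in the GFP libraries. MEF2C replicate 2 lay above GFP replicate 1, so that the groups overlapped, and the log2 fold change of -0.31 ± 0.13 did not pass the test (edgeR adjusted p = 0.841). Its partner Uqcrc2, core subunit 2, had -0.08 ± 0.14, and the cytochrome c1 gene Cyc1, whose protein hands electrons to cytochrome c, had 0.09 ± 0.15.

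Uqcrfs1 (ENSMUSG00000038462, chromosome 13, 30540308 to 30545362, minus strand) encodes the Rieske iron-sulfur protein, which carries electrons from ubiquinol to cytochrome c1. It was the most variable gene of the 48, at 129, 445 and 538 CPM in the MEF2C libraries and at 539, 78.5 and 225 in the GFP libraries. High and low libraries occurred in both groups, with 6.87 times between the highest and the lowest. The log2 fold change was 0.40 ± 0.94 with a 95% interval from -2.15 to 2.95 (edgeR adjusted p = 0.993), and it was -0.05 without GFP replicate 2 and 1.27 without GFP replicate 1. These data therefore set almost no bound on a difference for this gene.

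The small complex III subunits were steadier. Levels of different genes are given per kilobase of the longest annotated transcript and beside it in reads. With 1 read per cDNA, division by length favours short messages. Reads count amplified copies, so that neither scale counts RNA molecules. Per kilobase, mt-Cytb was the highest message of the complex at 4191 ± 767 CPM per kb (SD over 6 libraries) and Uqcrb, a small matrix-side subunit, the next at 2940 ± 99.4, close to Uqcr11 at 2864 ± 252. In reads mt-Cytb and Uqcrb also led, at means of 4794 and 1573 CPM. Uqcrb stood at 1605, 1603 and 1504 CPM in the MEF2C libraries and at 1508, 1627 and 1591 in the GFP libraries, a spread of 1.08 times over all 6 libraries (log2 fold change 0.00 ± 0.11, edgeR adjusted p = 0.998). Uqcr10, Uqcrh and Uqcrq had log2 fold changes of 0.07, -0.07 and -0.05, and Uqcr11 had -0.16 ± 0.12.

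Cytochrome c, the mobile carrier between complexes III and IV, comes from Cycs in somatic tissue (ENSMUSG00000063694, chromosome 6, 50562563 to 50566538, minus strand). Cycs stood at 978, 980 and 863 CPM in the MEF2C libraries and at 928, 1160 and 1238 in the GFP libraries. GFP replicates 2 and 3 were above all MEF2C libraries and GFP replicate 1 was not. The log2 fold change of -0.24 ± 0.13 did not pass the test (edgeR adjusted p = 0.928).

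Complex IV has 18 nuclear rows, of which 15 were tested, 11 with positive and 4 with negative log2 fold changes, a median of 0.07 and a range of -0.17 to 0.24. The other 3, Cox6b2, Cox7b2 and Cox8c, are the testis forms of their subunits. Cox6b2 had 52 counts over the 6 libraries, and Cox7b2 and Cox8c had 0, where a count of 0 allows up to 3 counts, or 0.769 to 0.890 CPM before scaling, by counting error only. Per kilobase, Cox8b was the highest complex IV message at 6346 ± 596 CPM per kb, followed by mt-Co3 at 6129 ± 878 and Cox6a2 at 6039 ± 549, differences smaller than their spread. In reads the order was another one, with mt-Co1 first at a mean of 6130 CPM (3968 ± 985 CPM per kb), then mt-Co3 at 4805 and Cox6a2 at 4107, and Cox8b at 2285.

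Cox6c (ENSMUSG00000014313, chromosome 15, 35925886 to 35938246, minus strand), a small membrane subunit, was the other gene whose groups did not overlap. It stood at 3209, 3215 and 2501 CPM in the MEF2C libraries and at 3264, 3278 and 3468 in the GFP libraries. MEF2C replicates 1 and 2 were close to the GFP libraries and replicate 3 was the low one (log2 fold change -0.17 ± 0.12, edgeR adjusted p = 0.965). Cox5a (ENSMUSG00000000088, chromosome 9), a matrix-side subunit, had the widest interval of the complex IV genes and a low GFP replicate 2: 1041, 1395 and 1424 CPM against 1488, 711 and 1253 (0.16 ± 0.28, edgeR adjusted p = 0.993). Cox4i1, the general form of subunit 4, had -0.17 ± 0.12, with a same-strand gene model, Gm20388, lying across it and 475 counts listed there. Cox4i2, the form best known from lung, stood at 10.5 to 18.7 CPM with 0.10 ± 0.25.

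The muscle and ubiquitous isoforms of subunits 6A, 7A and 8 were compared as pairs, with the ratio of the read counts taken inside each library. Subunit 6A was almost wholly of the muscle form and subunit 8 mostly so, whereas subunit 7A was divided between its forms: the muscle gene took 95.4% to 97.3%, 85.9% to 90.4% and 38.2% to 43.5% of the reads of its pair, respectively, in the 6 libraries. The mean read ratios of muscle to ubiquitous form were 29.5 ± 5.28 for subunit 6A, 7.95 ± 1.23 for subunit 8 and 0.675 ± 0.0538 for subunit 7A (SD over 6 libraries). Divided by transcript length they were 24.8, 12.1 and 0.917. The value for subunit 8 thus moves by over 1.5 times with that division. The groups overlapped in all 3 ratios, and the exact two-sided permutation test used for them cannot go below p = 0.1 with 3 libraries against 3.

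Cox6a2 (ENSMUSG00000030785, chromosome 7, 128205435 to 128206387, minus strand) stood at 4503, 4236 and 3394 CPM in the MEF2C libraries and at 4111, 4194 and 4202 in the GFP libraries (log2 fold change -0.04 ± 0.12, edgeR adjusted p = 0.993). Cox6a1 (ENSMUSG00000041697, chromosome 5, 115345642 to 115348981, minus strand) stood at 124, 205 and 121 CPM against 127, 133 and 147 (0.15 ± 0.19, edgeR adjusted p = 0.993). MEF2C replicate 2 was the high library for the ubiquitous form. The ratio of Cox6a2 to Cox6a1 was 36.2, 20.6 and 28.1 in the MEF2C libraries and 32.4, 31.4 and 28.5 in the GFP libraries, a log2 difference of -0.16 (exact permutation p = 0.6, adjusted over the 3 pairs 0.7).

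Cox7a1 (ENSMUSG00000074218, chromosome 7, 30184144 to 30186078, plus strand) stood at 1206, 1231 and 1027 CPM in the MEF2C libraries and at 1038, 1128 and 1275 in the GFP libraries (0.01 ± 0.12, edgeR adjusted p = 0.998). Cox7a2 (ENSMUSG00000032330, chromosome 9, 79755361 to 79759878, minus strand) stood at 1739, 1928 and 1574 CPM against 1676, 1669 and 1654 (0.07 ± 0.11, edgeR adjusted p = 0.993). Both forms had close levels in both groups. Their ratio was 0.694, 0.638 and 0.652 against 0.619, 0.676 and 0.771, a log2 difference of -0.05 (exact permutation p = 0.7, adjusted 0.7).

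Cox8b (ENSMUSG00000025488, chromosome 7, 140898945 to 140900446, minus strand) stood at 2547, 2409 and 1975 CPM in the MEF2C libraries and at 2323, 2082 and 2371 in the GFP libraries (0.03 ± 0.12, edgeR adjusted p = 0.993). Cox8a (ENSMUSG00000035885, chromosome 19, 7215153 to 7217616, minus strand) stood at 269, 394 and 288 CPM against 281, 250 and 273 (0.24 ± 0.15, edgeR adjusted p = 0.928). As with Cox6a1, MEF2C replicate 2 was the high library for the ubiquitous form. That library also had the highest adipocyte and brown adipocyte sums, and the part of these in its level was not tested. The ratio of Cox8b to Cox8a was 9.46, 6.12 and 6.86 against 8.28, 8.33 and 8.67, a log2 difference of -0.20 (exact permutation p = 0.4, adjusted 0.7).

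**Figure D4:**
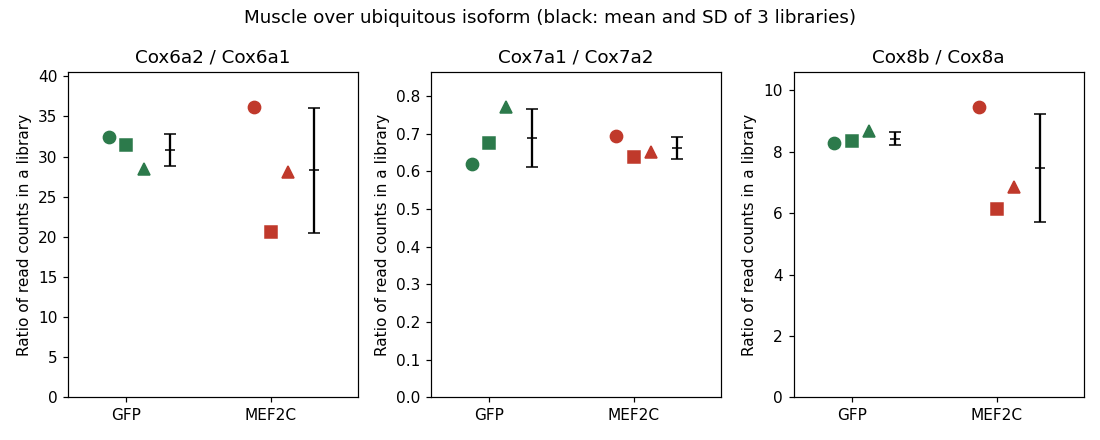
Ratio of read counts of the muscle isoform to the ubiquitous isoform in each library for subunits 6A, 7A and 8, with the mean and SD of each group of 3 in black and axes starting at 0. The groups overlap in all 3 panels, with the MEF2C libraries of the first pair spanning 20.6 to 36.2 and the GFP libraries 28.5 to 32.4.

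The promoters of the isoform genes are shown because the balance of muscle and ubiquitous form differed so much between subunits. RefSeq promoters (build GRCm38.p6) were matched for 34 of the 45 nuclear symbols, and the 250 bases before the RefSeq start were searched on both strands for 4 motifs: CTA, any 4 bases and TAG for MEF2 factors, CAGCTG as the E-box of myogenic factors, GCGC, any 2 bases and GCGC for NRF1 and CCGGAAG for GABPA, the last 2 being factors known for nuclear genes of mitochondrial proteins. Matches are in capitals in the sequences below, each given 5′ to 3′ on the strand of its gene and ending at the base before the start. The first 4 are the pairs of subunits 8 and 7A and the last is Cox6a1.
Cox8b (chr7:140900447-140900696, minus strand): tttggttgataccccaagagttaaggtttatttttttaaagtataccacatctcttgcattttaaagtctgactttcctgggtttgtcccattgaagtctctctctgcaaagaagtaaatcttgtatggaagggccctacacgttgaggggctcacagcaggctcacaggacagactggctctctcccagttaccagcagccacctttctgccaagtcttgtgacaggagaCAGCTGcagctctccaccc
Cox8a (chr19:7217617-7217866, minus strand): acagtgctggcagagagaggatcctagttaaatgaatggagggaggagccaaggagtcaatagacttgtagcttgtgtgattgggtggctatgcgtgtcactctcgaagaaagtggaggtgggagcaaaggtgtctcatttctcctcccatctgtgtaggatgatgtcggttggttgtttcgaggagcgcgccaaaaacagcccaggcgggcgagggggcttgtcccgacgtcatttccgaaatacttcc
Cox7a1 (chr7:30183921-30184170, plus strand): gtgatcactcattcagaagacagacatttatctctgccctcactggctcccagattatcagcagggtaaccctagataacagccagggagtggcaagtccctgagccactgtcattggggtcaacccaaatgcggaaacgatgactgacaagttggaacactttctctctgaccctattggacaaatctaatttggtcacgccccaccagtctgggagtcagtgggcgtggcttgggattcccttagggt
Cox7a2 (chr9:79759854-79760103, minus strand): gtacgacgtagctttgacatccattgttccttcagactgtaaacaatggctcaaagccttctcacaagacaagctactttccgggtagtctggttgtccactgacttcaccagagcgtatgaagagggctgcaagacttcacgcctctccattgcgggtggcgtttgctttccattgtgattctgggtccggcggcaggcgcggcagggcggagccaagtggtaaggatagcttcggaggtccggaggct
Cox6a1 (chr5:115348959-115349208, minus strand): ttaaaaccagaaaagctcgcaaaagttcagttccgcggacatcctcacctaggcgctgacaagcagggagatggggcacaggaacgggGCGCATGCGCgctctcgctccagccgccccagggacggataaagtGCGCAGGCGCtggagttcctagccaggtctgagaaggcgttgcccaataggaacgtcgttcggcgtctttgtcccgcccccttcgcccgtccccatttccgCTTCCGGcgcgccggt

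Cox8b held an E-box whose first base lies 19 bases before the start. Cox6a1 held NRF1 matches starting 162 and 117 bases before the start and a GABPA match, on the other strand, starting 16 bases before it, and none of these overlap. The windows of Cox8a, Cox7a1 and Cox7a2 held none of the 4 strings. A symbol was counted if any of its promoters held the string. Over the 34 matched symbols, GABPA was found in 8 (23.5%, beside 7.83% of all 27025 symbols) and NRF1 in 5 (14.7% beside 5.64%). The E-box was found in 2 (5.88% beside 14.7%), Cox8b and Atp5b, and MEF2 in 1 (2.94% beside 3.7%), Cox5b. Cox5b, a zinc-binding matrix subunit, stood at 1205, 1272 and 1098 CPM in the MEF2C libraries and at 1028, 1089 and 1174 in the GFP libraries, with overlapping groups (0.12 ± 0.11, edgeR adjusted p = 0.993). A match of letters is a description and no measure of binding.

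ATP synthase has 18 nuclear rows, of which 17 were tested, 8 with positive and 9 with negative log2 fold changes, a median of -0.03 and a range of -0.15 to 0.17. The untested row is the other identifier of Atp5o, ENSMUSG00000116933, with 0 counts, which overlaps the counted one. In the catalytic head, Atp5a1 (alpha), Atp5b (beta) and Atp5c1 (gamma) had log2 fold changes of -0.14 ± 0.12, -0.15 ± 0.11 and -0.10 ± 0.13, and Atp5d (delta) and Atp5e (epsilon) had -0.03 ± 0.12 and 0.01 ± 0.12. Atp5e (ENSMUSG00000016252, chromosome 2, 174461072 to 174464105, minus strand) had the highest value of the complex per kilobase, at 6425 ± 450 CPM per kb, while in reads Atp5g1 was slightly above it, at means of 2784 and 2705 CPM. It stood at 2922, 2836 and 2392 CPM in the MEF2C libraries and at 2675, 2612 and 2791 in the GFP libraries, with overlapping groups (edgeR adjusted p = 0.997).

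In the membrane part, Atp5k (ENSMUSG00000050856, chromosome 5, 108433244 to 108434448, minus strand), the e subunit that helps pair the enzyme into dimers, was next per kilobase at 4283 ± 503 CPM per kb, with a mean of 1589 CPM in reads. It stood at 1735, 1733 and 1316 CPM in the MEF2C libraries and at 1646, 1392 and 1713 in the GFP libraries (0.01 ± 0.13, edgeR adjusted p = 0.998). The lowest library was MEF2C replicate 3, and GFP replicate 2 was also low. Log2 fold changes of the remaining membrane and stalk genes, Atp5f1, Atp5h, Atp5j, Atp5j2, Atp5l, Atp5mpl and Atp5o, lay between -0.10 and 0.05. Atp5s, named for a coupling factor, had few reads, with a mean of 14.3 CPM (8.94 ± 1.52 CPM per kb) beside 13.4 CPM (18.3 ± 4.36 CPM per kb) for Cox4i2, so that which of them is the lower depends on the scale. It stood at 17.6, 13.2 and 14.5 CPM in the MEF2C libraries and at 12.4, 16.6 and 11.4 in the GFP libraries (0.17 ± 0.22, edgeR adjusted p = 0.993).

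The c subunit, whose ring turns as protons pass, comes from 3 nuclear genes that encode the same mature protein behind different import sequences. Atp5g1 gave 61.2%, 58.5% and 57.6% of the reads of the 3 genes in the MEF2C libraries and 56.5%, 55.4% and 56.8% in the GFP libraries. Atp5g3 gave 32.8%, 36.2% and 36.4% against 38.6%, 38.0% and 37.7%, and Atp5g2 gave 4.94% to 6.63% over all libraries. The MEF2C libraries thus had the higher share for Atp5g1 and, as its near complement, the lower one for Atp5g3. Neither overlapped, by a small gap, and no test was made. As single genes, Atp5g1, Atp5g2 and Atp5g3 overlapped between groups, with log2 fold changes of 0.12 ± 0.12, 0.05 ± 0.14 and -0.07 ± 0.11.

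Nuclear and mitochondrial genes were then set beside each other. The 42 tested nuclear genes had a median log2 fold change of 0.01, with 22 positive, and the 6 mitochondrial genes a median of -0.06, with 2 positive. All nuclear rows summed to 60347, 61131 and 51974 CPM in the MEF2C libraries and to 56786, 58657 and 61279 in the GFP libraries, 0.981 times as much in the mean of the former. The 6 mitochondrial genes summed to 21172, 19580 and 20191 CPM against 19069, 19933 and 20615, 1.02 times, and without mt-Co1 to 13459, 12037 and 13672 against 12715, 15178 and 16720, 0.878 times, with overlapping groups in each case. The ratio of nuclear to mitochondrial reads was 2.85, 3.12 and 2.57 against 2.98, 2.94 and 2.97. The GFP libraries were nearly equal in this ratio, and the MEF2C libraries lay on both sides of them.

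These values depend on the scaling of the libraries. As a plain share of the listed counts, the 6 mitochondrial genes of these complexes made up 2.06% to 2.19% in the MEF2C libraries and 1.8% to 1.99% in the GFP libraries, without overlap. All mitochondrially encoded genes made up 3.95% to 4.87% and 3.61% to 4.34%, with overlap. The nuclear genes of these complexes made up 5.63% to 6.42% and 5.3% to 5.93%. With library totals in place of the TMM scaling, the median of all tested genes was 0.14 in place of 0.01, and that of the nuclear genes 0.13. Relative to all tested genes, the nuclear median was therefore near 0 on both scales. With a correction for transcript length it was -0.09, beside -0.02 over all tested genes.

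MEF2C replicate 3 stood apart in the nuclear genes. On the TMM scale it was the lowest of the 6 libraries for 30 of the 42 tested nuclear genes and the highest for 1. As a plain share of the listed counts, their sum was lowest there only within its group. That share was 5.63%, with GFP replicate 2 lower at 5.3%, so that this place depends on the scaling. The median deviation from a gene's own mean over the libraries was 0.07, 0.07 and -0.16 on the log2 scale in the MEF2C libraries and -0.06, 0.03 and 0.06 in the GFP libraries, while the median over all tested genes in MEF2C replicate 3 was 0.01. In that library 37 of the 42 genes lay below their own mean, and so did all 36 nuclear complex I genes, with a median of -0.15. This library also had the lowest slow-fibre sum and the highest Mef2c level of its group, and the part of either in the deviation was not tested. Without it, the median log2 fold change of the nuclear genes was 0.07, and 0 of the 49 tested genes were called by edgeR, with 2 at an unadjusted p under 0.05.

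**Figure D5:**
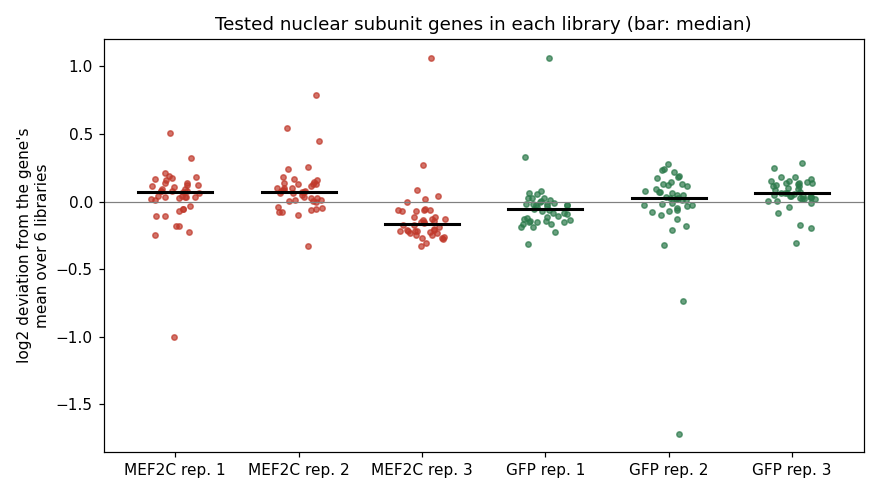
Deviation of each tested nuclear gene from its own mean over the 6 libraries, on the log2 scale, with 1 point per gene and a bar at the median of the 42 genes. The bar of MEF2C replicate 3 lies at -0.16 and the others between -0.06 and 0.07, and the points far from 0 include Uqcrfs1.

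The assembly factors of the 3 complexes likewise had no called gene. For complex III, 6 of 9 factors were tested, with a median log2 fold change of -0.02. The smallest p values were those of Ttc19 and Uqcc2, at -0.58 ± 0.31 and -0.19 ± 0.12 (edgeR adjusted p = 0.928 for both). For complex IV, 21 of 25 were tested, with a median of 0.08. Cox20, which stabilises the newly made mt-Co2 protein, stood at 139, 135 and 129 CPM in the MEF2C libraries and at 100, 99.5 and 93.0 in the GFP libraries. All 3 MEF2C libraries were above all 3 GFP libraries with little spread in either group, yet its log2 fold change of 0.46 ± 0.13 did not pass the adjustment over all genes (edgeR adjusted p = 0.475). Taco1, the translational activator of mt-Co1, stood at 13.7, 14.4 and 11.4 CPM against 16.3, 15.3 and 18.3, also without overlap (-0.34 ± 0.20, edgeR adjusted p = 0.928). Of the 21 factors, 3 in all were higher without overlap and 1 was lower, beside 5.75% and 5.33% of all tested genes. For ATP synthase, all 5 were tested with a median of -0.04, and Fmc1 and Atpaf2 had -0.30 ± 0.14 and -0.29 ± 0.20 (edgeR adjusted p = 0.875 and 0.951).

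Genes that express or set the amount of the mitochondrial genome were examined in the same fit, again with 0 called. Of the 16 genes for mitochondrial gene expression, 15 were tested, with a median of 0.01. Lrpprc, which stabilises mitochondrial messages, stood at 13.7, 13.2 and 19.8 CPM in the MEF2C libraries and at 11.6, 7.66 and 10.6 in the GFP libraries (0.64 ± 0.24, edgeR adjusted p = 0.808). Polrmt, the mitochondrial RNA polymerase, had -0.74 ± 0.39 (edgeR adjusted p = 0.928) at a mean of 5.31 CPM or less per group. Among 11 regulators of mitochondrial content, with a median of -0.04, Esrrg, a nuclear receptor of oxidative muscle, stood at 7.25, 7.22 and 3.87 CPM against 2.96, 2.23 and 3.71 (1.02 ± 0.36, edgeR adjusted p = 0.766). Ppargc1a, a coactivator known for raising mitochondrial genes, stood at 21.2, 26.6 and 18.9 CPM against 31.4, 27.4 and 27.3 (-0.37 ± 0.18, edgeR adjusted p = 0.904). Lrpprc and Esrrg had all MEF2C libraries above all GFP libraries, as 5.75% of all tested genes did. Ppargc1a and Gabpa (-0.31 ± 0.21, edgeR adjusted p = 0.948) had them all below, as 5.33% of all tested genes did.

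The other respiratory genes gave values in the same range. The 36 nuclear genes of complex I had a median log2 fold change of -0.04, with 12 positive and all 36 intervals within 1.5-fold either way. The other mitochondrially encoded RNAs, 7 of 9 tested, had a median of 0.10, and mt-Nd4 and mt-Nd3 had the smallest p values at -0.25 ± 0.14 and -0.23 ± 0.17 (edgeR adjusted p = 0.928 and 0.965). The 4 genes of complex II had a median of -0.07, and 6 genes used as a measure of mitochondrial mass had -0.13, among them citrate synthase, Cs, at -0.20 ± 0.13 (edgeR adjusted p = 0.93). Of the latter 1 was positive, Tomm20 at 0.69 ± 0.51 (edgeR adjusted p = 0.976). Ndufa4, now counted with complex IV, had -0.08 ± 0.11 (edgeR adjusted p = 0.993), and Hccs, which attaches haem to cytochromes c and c1, had -0.24 ± 0.36 (edgeR adjusted p = 0.993). Over all of these lists, from assembly factors to mitochondrial mass and with complex I included, edgeR called 0 of 113 tested genes. At an unadjusted p under 0.05 edgeR had 3, Cox20, Lrpprc and Esrrg, beside 5.71% of all tested genes.

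The genes share features that the choice by symbol did not use. Their median longest transcript was 746 bases with 4 exons, against 3026 bases and 9 exons over all tested genes. The 46 nuclear rows lie on 19 chromosomes, with 6 on chromosome 7, the most on any. Several overlap other annotated genes, such as Cox6a2 inside Itgad on the other strand, with 1 count listed for Itgad, and Atp5j with Gabpa on the other strand, with 326 counts, and since the use of strand in counting is not given, reads of such pairs cannot be told apart. Atp5g1, whose longest transcript of 4715 bases is far longer than those of Atp5g2 and Atp5g3, has a level per kilobase of 590 CPM per kb that rests on that model.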

How the data were processed

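Per the labels, 1 µg of total RNA from frozen skeletal muscle entered each Nanopore PCR-cDNA library with 14 PCR cycles. The submitters' processing notes list minimap2, the build GRCm38 and DESeq2 1.6.3, with no role for any. Which tool and annotation gave the counts, and whether strand was used, is not given in the sources used here. The deposited read counts per gene, whole numbers per the file headers, were used as they stood. The authors' deposited CPM were used only to work out the library totals, of which the listed counts made up 95.6% to 96.4%. There were 30 rows naming no gene, with 0 counts, left out. Replicates differed beyond sampling noise (chi-square per degree of freedom 4.95 to 10.3).

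Tests used edgeR 4.0.16 in R 4.3.3 (filterByExpr by group, TMM, glmQLFit with robust dispersion, glmQLFTest, Benjamini-Hochberg over 9229 genes, call at adjusted p under 0.05). Standard errors came from the F statistic, and the procedure was tested on simulated data. Isoform ratios added 0.5 to each count and used scipy 1.17.1. Lengths and coordinates came from the GENCODE annotation of GRCm38 (22022 identifiers matched, among them all 52 rows studied). Alternatives were DESeq2 1.42.0, limma 3.58.1 (voom), other scalings and filters, a length correction, a replicate block and leaving out each library. PCR reads have no molecular identifiers, so intervals and floors from counts cover counting error only.

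The genes and lists were chosen with earlier results of these data known. Every gene of the 3 complexes could be named. Values per library were given for called genes, the isoform pairs, the mitochondrial genes, the 4 genes with the largest positive and the 4 with the most negative log2 fold change, and the 2 highest per kilobase in each complex. Of other lists, except complexes I and II and the cell type markers, up to 4 called genes or the 2 with the smallest p were named. Cox6c, Cox5a, Cox4i2, Cox5b, the c subunit shares, the shares of mt-Nd1 and mt-Nd4, Gabpa, and Ppargc1a's groups were singled out after their values were seen.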

Additional observations from a re-analysis of the deposited data

How the results depend on the processing

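Under each of the 16 alternatives, 0 of the genes of the 3 complexes and 0 of the list genes were called, while the count over all genes ranged from 0 (non-robust dispersion, and without GFP replicate 3) to 35 (no low-count filter), with 22 by the DESeq2 Wald test or without MEF2C replicate 3, and 3 by limma-voom. The adjusted p of mt-Co1 ranged from 0.0557 (no low-count filter) to 1.0 (without GFP replicate 2), and was 0.0815 without GFP replicate 1. With library totals in place of TMM the nuclear median was 0.13, Cox6a2 0.08, mt-Co2 0.09 and mt-Atp6 0.04, where all genes shifted to 0.14. The length correction gave a nuclear median of -0.09 and a mitochondrial median of -0.16, beside -0.02 over all tested genes. It gave -0.12 for Cox7a1, -0.04 for Cox7a2, -0.14 for Cox8b and -0.15 for mt-Atp8. With no low-count filter Cox7a1 had 0.00 and mt-Atp8 -0.01, and DESeq2 size factors gave mt-Atp8 0.00. Without division by length the isoform ratios were 29.5, 0.675 and 7.95. Leaving out each library gave the isoform differences -0.35 to 0.05 (Cox6a2 to Cox6a1), -0.13 to 0.03 (Cox7a1 to Cox7a2) and -0.38 to -0.06 (Cox8b to Cox8a), a nuclear median of -0.06 to 0.07 and a mitochondrial median of -0.14 to 0.01. The cause of these changes was not tested. Of 256 values of 16 named genes, 229 kept their direction, 27 reversed and 0 passed the test.
Over the fits that left out 1 library each, the log2 fold changes of the genes that changed sign ranged as follows: Uqcrfs1 -0.05 to 1.27, Cox6a2 -0.13 to 0.07, Cox6a1 -0.15 to 0.28, Cox7a1 -0.07 to 0.09, Cox7a2 -0.01 to 0.14, Cox8b -0.05 to 0.13, mt-Co2 -0.13 to 0.05 and mt-Atp8 -0.16 to 0.39.
Same-numbered libraries did not deviate together, with correlations of -0.24, 0.05 and -0.26, beside -0.13 to 0.33 for differently numbered ones. Deviations from a mean of 3 libraries constrain each other, so that this check cannot tell whether same-numbered libraries share an animal or a batch. With a replicate block, edgeR called 0 of the 48 genes and 2 in all, the nuclear median was 0.00, the mitochondrial median -0.06, and the isoform differences were -0.16, -0.05 and -0.20 (exact permutation p = 0.75, 0.75 and 0.5). The tested genes under 100 CPM were mt-Atp8, Cox4i2 and Atp5s, and the part of depth in their intervals was not tested.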
